A study of Paeonia suffruticosa with 12 samples.

Results

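Entry into phenylpropanoid synthesis was followed in 5 of the 130956 unigenes (transcripts that the assembler Trinity grouped as coming from 1 locus) counted in the 12 libraries of this series. They were chosen by identifier. TRINITY_DN2415_c0_g1 and TRINITY_DN1178_c0_g1 are both named PALY after phenylalanine ammonia-lyase, and TRINITY_DN27087_c0_g1 is named TCMO after trans-cinnamate 4-monooxygenase. TRINITY_DN2755_c0_g1 is named 4CL2 after a 4-coumarate-CoA ligase, and TRINITY_DN462_c0_g2 is named 4CLL7 after a protein that resembles such a ligase. Each of the 5 had reads in every library and passed the filter of a count above 0 in at least 3 libraries, which left 58247 unigenes for the tests. The names are matches to proteins of other species, and they come from the study's lists of unigenes that differed between AC and PVP and, for PALY DN2415, TCMO and 4CLL7, also between PVP and AC and PVP. PVP vs. CK and AC vs. CK reuse the PVP and AC libraries whose difference put the 5 on those lists. The counts, medians and p-values of the 5 are therefore a description in every comparison, and the shares over all unigenes beside them give the background only.

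Phenylalanine ammonia-lyase removes ammonia from phenylalanine to give cinnamate, and cinnamate 4-hydroxylase, the enzyme behind the name TCMO, turns cinnamate into p-coumarate. A 4-coumarate-CoA ligase then joins p-coumarate to coenzyme A. The product feeds the synthesis of lignin, of the phenolic part of suberin, of lignans and of flavonoids, and phenolics of this kind are oxidised to brown products in injured plant tissue. The 4CL-like proteins belong to the same family of acid-CoA ligases, but many act on other acids, so the place of 4CLL7 on this path rests on similarity alone.

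The libraries came from seedlings of the tree peony variety "FengDan" raised in vitro from seed embryos, 3 libraries for each of 4 groups, and the labels of all 4 groups put sampling at 30 days after rooting in culture. CK had no browning inhibitor. PVP stands for polyvinyl pyrrolidone, which holds phenolics, AC for activated carbon, which takes up many solutes, and AC and PVP (also called the combination here) for both in 1 medium. The paper reports that seedlings of CK and PVP did not root, whereas those with AC, alone or combined, did. The label of days after rooting therefore cannot be literal for CK and PVP. Differences with AC cannot be told apart from differences between rooted and unrooted seedlings. All 4 groups shared 1 basal medium with agar, sucrose and the auxin IAA, and the amount of PVP was higher in AC and PVP than in PVP, so AC and PVP vs. PVP, the mean AC effect and the interaction cannot tell added AC from added PVP. Each library pooled several embryos, the labels name roots, stems and leaves as the tissue whereas the methods name leaves and roots, and the p-values measure the spread between such pools.

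Total estimated counts ran from 11071691 in AC and PVP replicate 3 to 25069044 in PVP replicate 2. In the paper's read statistics, AC and PVP replicate 3 also had the fewest reads and the lowest share of high-quality bases of all libraries. Levels are TMM-scaled CPM, counts made comparable for library size and for composition by edgeR's trimmed mean factors. The factor was lowest in PVP replicate 2 (0.752) and highest in CK replicate 1 (1.47). The groups were not alike in their marker transcripts. The 14 seed reserve unigenes (storage and oil body proteins) had a summed CPM of the library total of 3200 to 25918 with AC, 2510 to 18053 with the combination and 1933 to 5820 with PVP, and CK libraries had 3518, 3788 and 44339. Without 1 of them, VICHY TRINITY_DN913_c0_g1, which stood high in every library and was set aside after its values were seen, the sum was 52.0 and 136 CPM in CK replicates 3 and 1 but 42889 in CK replicate 2. PVP libraries had 40.1 to 237 CPM by that sum, AC libraries 2277 to 24935 and those of the combination 887 to 16250. None of the 14 was at 0 in a library with AC, and 2 to 4 were at 0 in each PVP library. The 11 green tissue unigenes summed to 195 to 443 CPM with PVP, 257 to 421 with the combination, 108 to 191 with AC and 45.6 to 209 in CK, with at most 3 at 0 in any library. The 5 root barrier unigenes (enzymes of suberin synthesis and MYB factors of root barriers) summed to 15.2 to 36.2 CPM in the 6 libraries without AC and to 3.58 to 6.70 CPM in the 6 with AC. All 3 lists came from the study's own differing unigenes, so they are no independent measure, and the part of these differences in the results below was not tested beyond the fits stated. In mixed tissue, fewer cells of a type cannot be told apart from less RNA per cell.

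The first step was covered by both PALY unigenes. PALY DN2415 stood at 99.4, 53.5 and 107 TMM-scaled CPM in CK replicates 1, 2 and 3, and at 148, 152 and 229 in PVP. It stood at 46.4, 34.7 and 44.0 in AC and at 86.3, 69.1 and 74.4 in AC and PVP. All 3 PVP libraries lay above all others and all 3 AC libraries below all others on this scale, while CK and AC and PVP overlapped. As CPM of the library total, PVP overlapped CK, and so did AC, with AC up to 56.2 and CK from 55.9. The group means were 176 ± 45.8 in PVP, 86.8 ± 29.1 in CK, 76.6 ± 8.81 in the combination and 41.7 ± 6.19 in AC (SD, n = 3).

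Against CK, PALY DN2415 was higher in PVP by a log2 fold change of 1.02 (SE 0.31, 95% interval 0.36 to 1.69), which did not pass the test (edgeR quasi-likelihood, Benjamini-Hochberg adjusted p = 0.161). In AC vs. CK it was -1.06 (SE 0.31, 95% interval -1.72 to -0.39, edgeR adjusted p = 0.226). In AC and PVP vs. CK it was -0.18 (SE 0.31, 95% interval -0.84 to 0.48, edgeR adjusted p = 0.813). The difference from CK thus had opposite signs with PVP alone and with AC alone, neither past the threshold, and was near 0 with both agents together. CK replicate 2, the library with the high seed reserves, held the lowest level in CK.

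PALY DN1178 stood at 18.3, 36.8 and 23.1 TMM-scaled CPM in CK, and at 39.2, 56.3 and 48.6 in PVP. It stood at 10.05, 12.3 and 18.2 in AC and at 16.97, 27.9 and 20.4 in AC and PVP. On this scale PVP was again above every other library, AC replicate 3 lay just under CK replicate 1, and AC and PVP overlapped both AC and CK. As CPM of the library total, AC (11.9 to 15.3), AC and PVP (18.2 to 23.0) and CK (26.8 to 38.4) did not overlap one another, and PVP overlapped CK. Here CK replicate 2 was the highest of its group, the reverse of its place for PALY DN2415. The log2 fold change against CK was 0.88 in PVP (SE 0.32, edgeR adjusted p = 0.268), -0.95 in AC (SE 0.33, edgeR adjusted p = 0.333) and -0.26 in AC and PVP (SE 0.32, edgeR adjusted p = 0.746), none of them past the test.

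The balance of both unigenes was read within each library, where scaling cancels out. PALY DN2415 held 70.7% to 84.5% of their joint counts in 11 libraries and 59.3% (Wilson 95% interval 57.1% to 61.4%, counting error only) in CK replicate 2. The mean share was 78.2% ± 4.81 with PVP, 77.7% ± 6.20 with the combination, 75.6% ± 5.95 with AC and 75.4% ± 13.98 in CK (SD, n = 3). The 4 means lay within the spread between replicates, so no shift from one unigene to the other beyond that spread was seen. As unigene lengths were not at hand, the share does not give the relative abundance of both transcripts, and only differences between libraries can be read. Without unigene sequences, reads shared by similar copies of the gene could not be traced, and the split is uncertain to that extent. The estimated counts of each PALY unigene were nonetheless whole numbers in 11 of 12 libraries. The exception for both was PVP replicate 1, at 3493.56 for PALY DN2415 and 926.44 for PALY DN1178. Some of their reads there were split with other sequences, and whether with each other was not tested.

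The second step, TCMO, stood at 29.3, 35.4 and 26.3 TMM-scaled CPM in CK, and at 36.4, 70.8 and 47.4 in PVP. It stood at 21.5, 14.6 and 23.4 in AC and at 20.8, 25.4 and 20.3 in AC and PVP. All 6 libraries with AC were below all 6 without, on this scale and as CPM of the library total, and AC and AC and PVP overlapped each other. Against CK the log2 fold change was 0.76 in PVP (SE 0.29, edgeR adjusted p = 0.302), -0.61 in AC (SE 0.29, edgeR adjusted p = 0.542) and -0.45 in AC and PVP (SE 0.29, edgeR adjusted p = 0.531). None passed the test, and PVP replicate 1 was just above CK replicate 2.

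The third step was represented by 4CL2, the least variable of the unigenes within PVP apart from 4CLL7. It stood at 10.3, 7.54 and 8.54 TMM-scaled CPM in CK and at 15.4, 17.9 and 20.3 in PVP. It stood at 6.71, 5.56 and 9.64 in AC and at 7.58, 10.5 and 7.83 in AC and PVP. PVP stood above the other 9 libraries, and the other 3 groups overlapped one another. PVP vs. CK gave a log2 fold change of 1.02 (SE 0.28, 95% interval 0.43 to 1.61), the smallest adjusted p of the 5 unigenes in that comparison but not past the threshold (edgeR adjusted p = 0.110). AC vs. CK gave -0.27 (SE 0.28, edgeR adjusted p = 0.745) and AC and PVP vs. CK -0.03 (SE 0.28, 95% interval -0.62 to 0.57, edgeR adjusted p = 0.983).

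4CLL7 ran the other way. It stood at 5.41, 5.79 and 4.07 TMM-scaled CPM in CK and at 4.10, 4.35 and 3.81 in PVP, with a CV of 6.55% over the PVP libraries. It stood at 7.81, 10.3 and 17.9 in AC and at 17.1, 7.92 and 39.9 in AC and PVP. Every library with AC lay above every library without it on this scale, and the libraries with both agents spread widest, with a CV of 76.1%. As CPM of the library total the 6 and 6 libraries overlapped.

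In AC and PVP vs. CK, 4CLL7 rose by a log2 fold change of 2.08 (SE 0.46, 95% interval 1.10 to 3.06, edgeR adjusted p = 0.0493), the only call among the 5 unigenes in a comparison with CK. That call sat at the threshold. It was lost without CK replicate 1, 2 or 3 or AC and PVP replicate 1 (edgeR adjusted p = 0.0658 to 0.155) and without AC and PVP replicate 3, which left a log2 fold change of 1.37 (edgeR adjusted p = 0.199). It was also lost when AC and PVP and CK were fitted alone (2.07, edgeR adjusted p = 0.123), with library sizes in place of TMM (1.74, edgeR adjusted p = 0.0791) and with the seed reserve sum as a covariate (2.01, edgeR adjusted p = 0.0689). DESeq2 made the call on the libraries of both groups and on all libraries. Among all tested unigenes it called 1486 of 41585 and 1608 of 58050 in these fits. AC vs. CK gave 1.23 (SE 0.45, 95% interval 0.27 to 2.19, edgeR adjusted p = 0.377) and PVP vs. CK -0.32 (SE 0.45, edgeR adjusted p = 0.811), neither past the test.

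**Figure D1:**
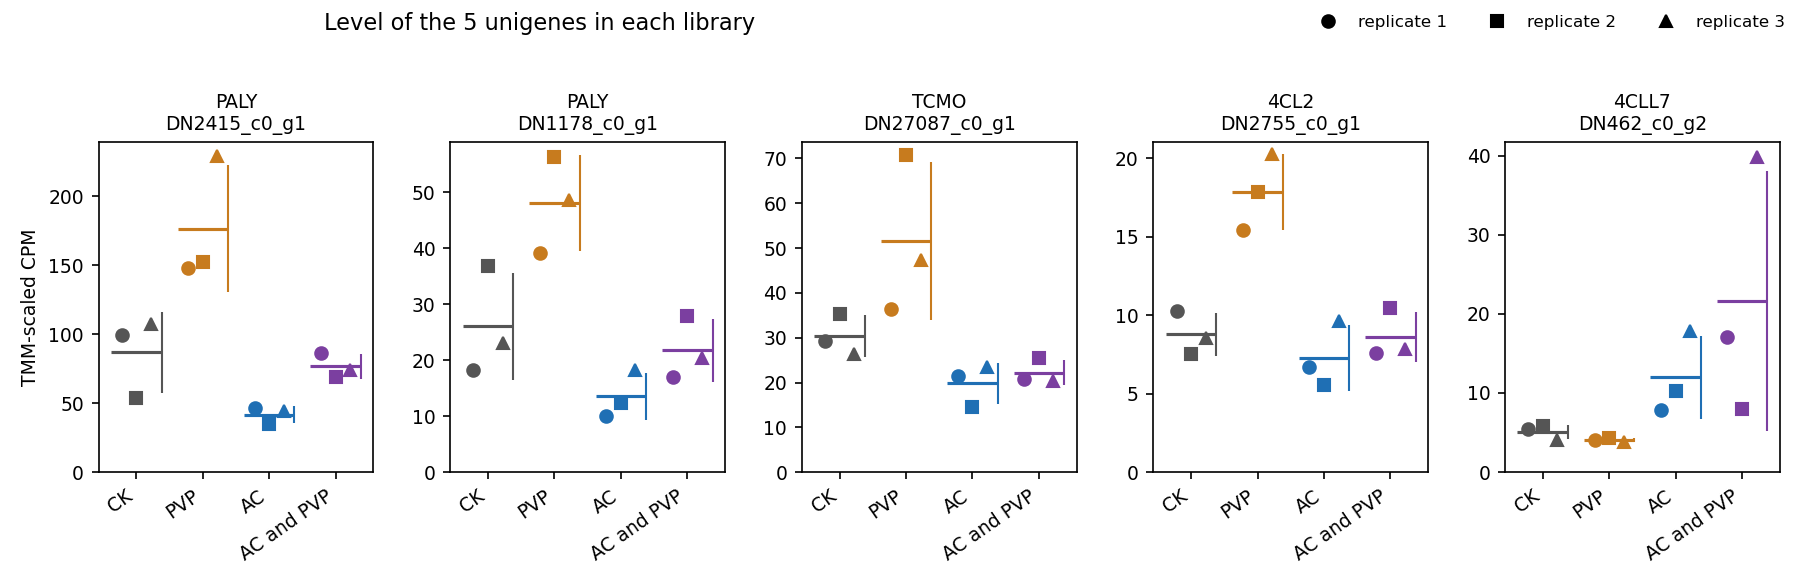
TMM-scaled CPM of the 5 unigenes (y axis, linear and starting at 0, scaled for each unigene) in each library by group (x axis); marker shapes give the replicate number, horizontal lines the group mean and vertical lines 1 SD over 3 libraries. PVP holds the highest libraries of both PALY unigenes and 4CL2, while 4CLL7 lies at 3.81 to 5.79 without AC and at 7.81 to 39.9 with AC.

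Within a library, 4CL2 and 4CLL7 can be set against each other without any scaling. The count of 4CLL7 over that of 4CL2 was 0.528, 0.768 and 0.477 in CK and 0.266, 0.243 and 0.188 in PVP. With AC it was 1.16, 1.85 and 1.86, and with the combination 2.26, 0.756 and 5.09. PVP libraries were below all CK libraries and AC libraries above them, whereas AC and PVP replicate 2 fell just under CK replicate 2. As the lengths of the unigenes were not at hand, a ratio of 1 does not mean equal transcript levels, and only the differences between libraries can be read.

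**Figure D2:**
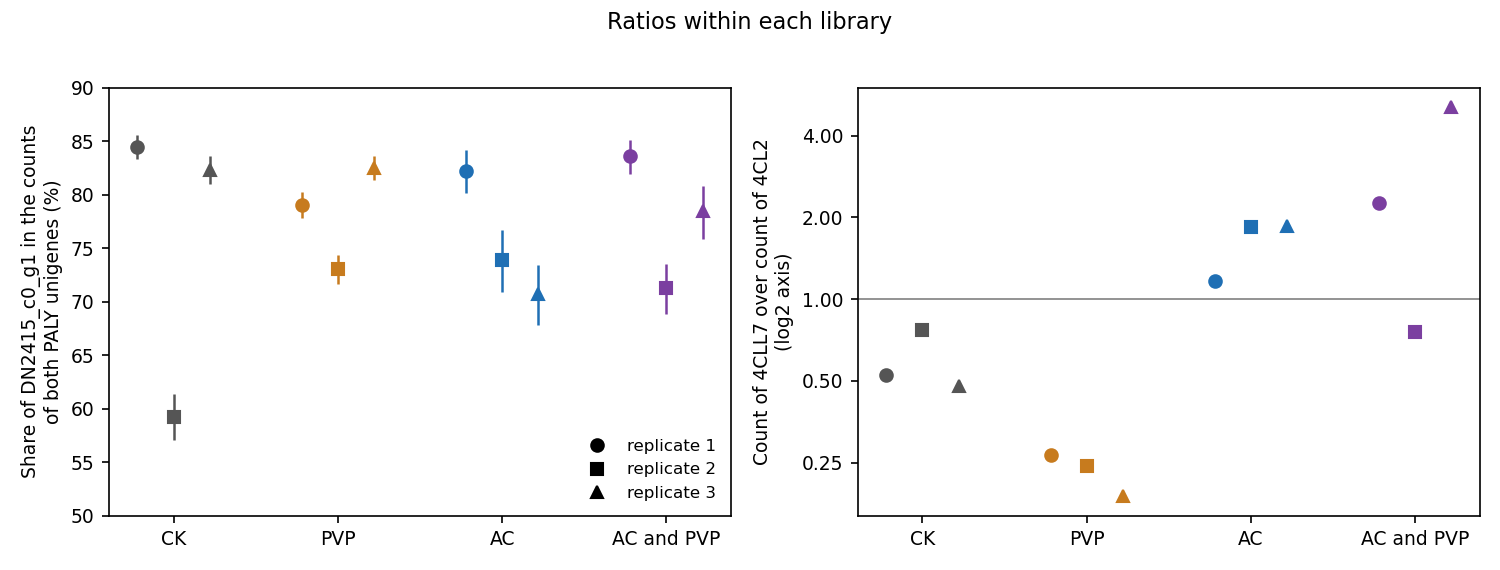
Left, the share of PALY DN2415 in the counts of both PALY unigenes (percent, y axis from 50 to 90) with Wilson 95% intervals; right, the count of 4CLL7 over that of 4CL2 (log2 axis), by group and library. CK replicate 2 stands apart at 59.3% on the left, and on the right the PVP libraries lie at 0.188 to 0.266 and the AC libraries at 1.16 to 1.86.

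Read together, PVP vs. CK called 0 of the 5 entry enzymes, against 0.702% of all tested unigenes, so nothing passed the rule for a call, an adjusted p under 0.05 together with a log2 fold change beyond 1 in either direction. At an unadjusted p under 0.05, 4 of 5 were higher (both PALY unigenes, TCMO and 4CL2), where 5.55% of all unigenes were. DESeq2, the other count test run, called 4CL2 on the libraries of both groups (log2 fold change 1.09, DESeq2 adjusted p = 0.0214) and 4CL2 and PALY DN2415 on all libraries. Among all tested unigenes it called 1609 of 41057 and 1673 of 58050 in these fits. EdgeR with the stricter filter filterByExpr called 4CL2 as well (edgeR adjusted p = 0.0377), and in that fit it called 833 of 20884 tested unigenes. The median log2 fold change of the 5 was 0.88 beside -0.16 over all tested unigenes and -0.097 over the 15141 with a mean log2 CPM over 0. In the same comparison the 11 green tissue unigenes had a median of 1.73, with 2 called higher. They did not all go 1 way. At an unadjusted p under 0.05, 6 were higher and 2 lower, and PSBS and both PSBR unigenes had lower means in PVP than in CK. The part of the green tissue unigenes in the values of the entry enzymes was not tested.

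The size of that difference depended on the scaling. With library sizes alone, the medians were 0.30 for the 5 unigenes and -0.76 for all unigenes, so the distance between them was 1.04 with TMM and 1.06 without. On CPM of the library total, PVP and CK overlapped for both PALY unigenes, TCMO and 4CL2. These 4 unigenes thus stood higher in PVP relative to the bulk of the transcriptome, while their share of all reads overlapped between the groups.

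AC vs. CK called 0 of 5, against 0.324% of all tested unigenes. At an unadjusted p under 0.05, both PALY unigenes were lower and 4CLL7 higher, where 5.49% and 3.85% of all unigenes were. DESeq2 on all libraries called PALY DN2415 (log2 fold change -1.01), and DESeq2 on the libraries of both groups called none. Among all tested unigenes these fits called 823 of 58050 and 568 of 39174. AC and PVP vs. CK called 1 of 5 (4CLL7, higher), against 0.833% of all tested unigenes in either direction and 0.458% higher, and the other 4 lay between -0.45 and -0.03. The median of the 5 was -0.61 in AC vs. CK beside -0.23 over all tested unigenes, and -0.18 beside -0.12 in AC and PVP vs. CK. Over the 15141 tested unigenes with a mean log2 CPM over 0, the median was -0.043 in AC vs. CK and -0.129 in AC and PVP vs. CK.

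**Figure D3:**
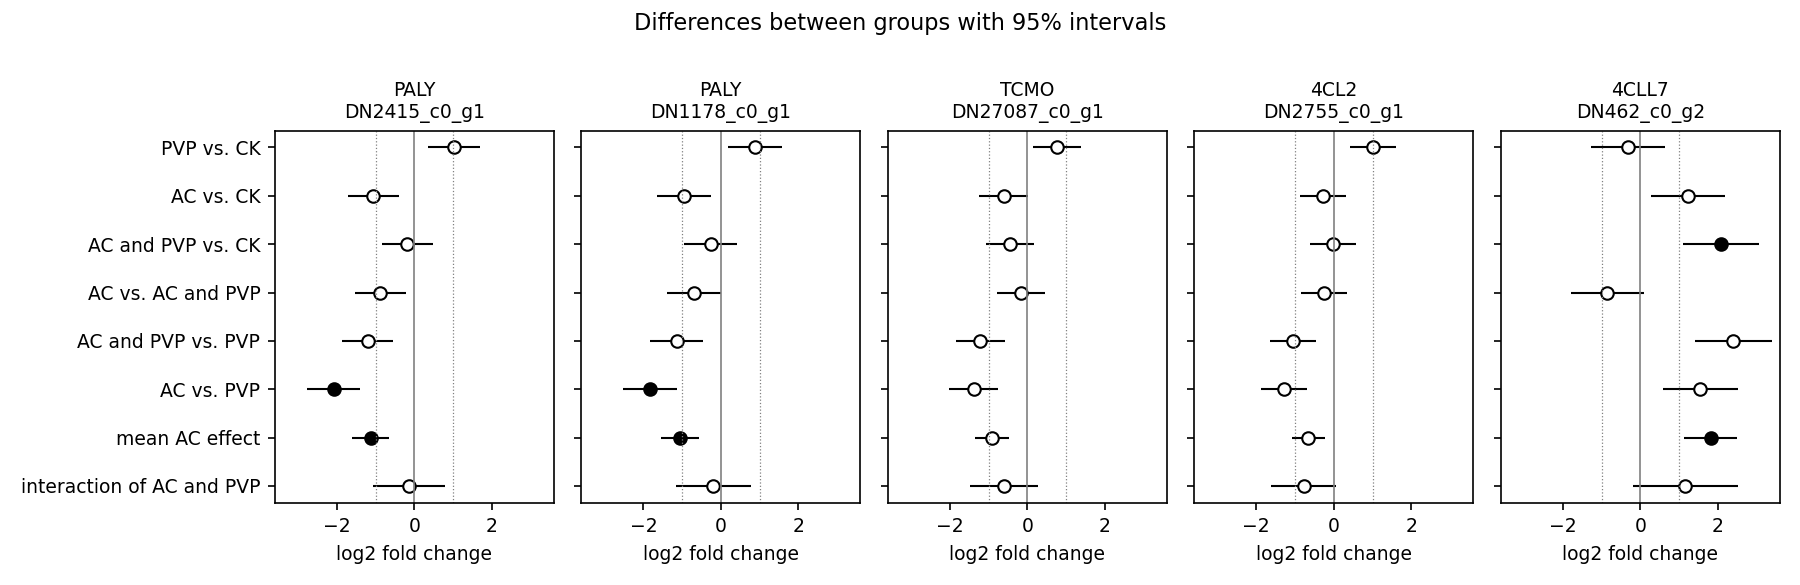
Log2 fold changes (x axis) of the 5 unigenes in 6 comparisons of groups, the mean AC effect and the interaction of AC and PVP, with 95% intervals from edgeR's fit of all 12 libraries; filled points were called, and dotted lines mark 1 and -1. In PVP vs. CK the intervals of both PALY unigenes, TCMO and 4CL2 lie above 0 with open points, and 4CLL7 is filled in AC and PVP vs. CK and in the mean AC effect.

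The mean AC effect set the 6 libraries with AC against the 6 without, giving equal weight to AC vs. CK and to AC and PVP vs. PVP. It called 3 of 5 unigenes, 1 higher and 2 lower, against 0.771% of all tested unigenes (0.311% higher and 0.46% lower), and it holds the libraries of AC and of PVP by which the 5 were named. 4CLL7 was at 1.82 (SE 0.32, edgeR adjusted p = 0.0151), PALY DN2415 at -1.13 (SE 0.22, edgeR adjusted p = 0.0250) and PALY DN1178 at -1.04 (SE 0.23, edgeR adjusted p = 0.0482). TCMO at -0.91 (edgeR adjusted p = 0.0560) and 4CL2 at -0.66 (edgeR adjusted p = 0.180) were not called. All 5 root barrier unigenes were called lower in the same effect, and their part in the values of the entry enzymes was not tested.

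The mean AC effect on 4CLL7 was called in 20 of 21 alternative fits, at 1.48 to 2.02. The exception, a covariate of the seed reserve sum without VICHY DN913 added after seeing the data, left it at 1.85 with a wider error (edgeR adjusted p = 0.1503). The same covariate moved PALY DN2415 to -0.75 (edgeR adjusted p = 0.507) and PALY DN1178 to -1.34 (edgeR adjusted p = 0.0716), and no call among the 5 remained in any comparison. That sum was higher in all 6 libraries with AC than in 5 of the 6 without, CK replicate 2 being the exception, and its part in the AC effect cannot be told apart from that of AC. For both PALY unigenes the mean AC effect was at the threshold, since leaving out 1 library ended the call of PALY DN2415 for AC replicates 2 and 3, PVP replicate 3, CK replicates 1 and 3 and replicates 1 and 3 of the combination. The highest edgeR adjusted p among these was 0.102. The call of PALY DN1178 was lost without any 1 of AC replicates 1 and 2, PVP replicates 1, 2 and 3, CK replicates 2 and 3 and replicates 1 and 3 of the combination (highest edgeR adjusted p = 0.1503).

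**Figure D4:**
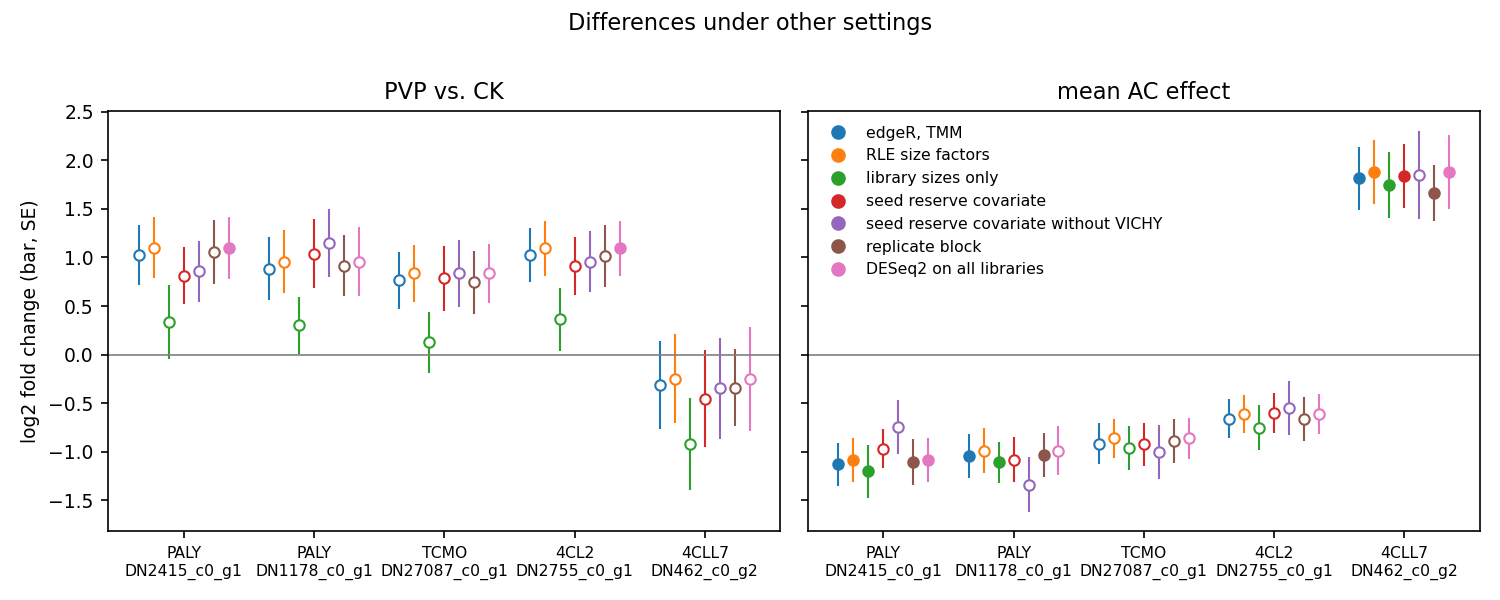
Log2 fold changes (y axis, bars 1 SE) of the 5 unigenes under 7 settings in PVP vs. CK and in the mean AC effect; filled points were called. In PVP vs. CK the points with library sizes alone sit closest to 0 for both PALY unigenes, TCMO and 4CL2, and in the mean AC effect all points of 4CLL7 lie above 1.

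In AC vs. PVP, the comparison behind the naming of all 5, edgeR called both PALY unigenes lower, 2 of 5 against 0.264% of all tested unigenes in either direction and 0.203% lower. The log2 fold change was -2.08 for PALY DN2415 (SE 0.32, edgeR adjusted p = 0.0114) and -1.83 for PALY DN1178 (SE 0.33, edgeR adjusted p = 0.0309). Both calls were lost without AC replicate 1, AC replicate 2 or PVP replicate 3, and that of PALY DN1178 also without PVP replicate 2. TCMO at -1.38, 4CL2 at -1.29 and 4CLL7 at 1.55 did not pass (edgeR adjusted p = 0.0778 to 0.270). DESeq2, the study's tool, called all 5 on the libraries of both groups, where it called 838 of 36370 tested unigenes. As the 5 were named from the study's list for this comparison, that count is no separate support.

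AC and PVP vs. PVP called 0 of 5, against 0.0704% of all tested unigenes, though all 5 had an unadjusted p under 0.05, 4 lower and 1 higher, where 4.09% and 5.31% of all unigenes were. The log2 fold changes were -1.05 to -1.21 for both PALY unigenes, TCMO and 4CL2, and 2.398 for 4CLL7 (edgeR adjusted p = 0.0942). DESeq2 called 4 of 5 on the libraries of both groups and 3 of 5 on all libraries. Among all tested unigenes it called 829 of 37549 and 335 of 58050 in these fits. This comparison shares the PVP libraries with AC vs. PVP and with PVP vs. CK, so the 3 are not independent.

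AC vs. AC and PVP called 0 of 5 by edgeR and by DESeq2, against 0.00687% of all tested unigenes by edgeR. PALY DN2415 had the clearest difference, with all 3 AC libraries below all 3 with both agents (log2 fold change -0.88, SE 0.31, 95% interval -1.54 to -0.21), and it was the only 1 of the 5 lower at an unadjusted p under 0.05, where 4.47% of all unigenes were (edgeR adjusted p = 0.776). The interaction of AC and PVP, which asks whether the difference made by AC depended on PVP, called 0 of 5, against 0.00172% of all tested unigenes, with 0 of 5 at an unadjusted p under 0.05, where 7.47% of all unigenes were, and 0 of 5 by DESeq2. For PALY DN2415 it was -0.15 (95% interval -1.08 to 0.78) and for 4CLL7, the widest, 1.16 (SE 0.63, edgeR adjusted p = 0.676).

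The agents' effects on the neighbouring steps were read from 21 further unigenes named after enzymes or regulators of phenylalanine supply, the monolignol, lignan and flavonoid branches and feruloyl transfer, all of them drawn from the study's own lists of differing unigenes. Those lists cover AC vs. CK, AC vs. PVP and PVP against AC and PVP among others, so the counts are a description in every comparison. In PVP vs. CK, 2 of 21 rose and 0 fell, beside 0.527% and 0.175% of all tested unigenes. AROD1, named after an arogenate dehydratase, which turns arogenate into phenylalanine, rose by 1.45 (SE 0.31, edgeR adjusted p = 0.0463). CSE DN9013, a caffeoylshikimate esterase of the lignin path, rose by 1.85 (SE 0.35, edgeR adjusted p = 0.0320). The other CSE unigene, DN17083, went the other way, with a mean of 12.8 TMM-scaled CPM in CK and 6.03 in PVP. At an unadjusted p under 0.05, 11 of 21 were higher and 2 lower, beside 5.55% and 5.62% of all unigenes, and the median was 1.09 beside -0.16 over all tested unigenes. The call of AROD1 was lost whenever 1 library of either group was left out, and that of CSE DN9013 in 5 of the 6 fits. The smallest adjusted p of the other groups was that of DIR5, a dirigent protein name, for lignans (1.10, edgeR adjusted p = 0.176), HHT1 DN676_c0_g2 for feruloyl transfer (1.38, edgeR adjusted p = 0.331), FAOMT for flavonoids (-1.51, edgeR adjusted p = 0.365) and ODO1 for the MYB regulators (0.72, edgeR adjusted p = 0.366), none called.

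In AC vs. CK, 2 of 21 rose and 1 fell, beside 0.18% and 0.144% of all tested unigenes. DIR7, named after a dirigent protein of the kind that couples monolignols, stood at 0.208, 0.180 and 0.0776 TMM-scaled CPM in CK and at 1.302, 1.72 and 1.26 in AC, and rose by 3.13 (SE 0.60, edgeR adjusted p = 0.0371). SILD, named after secoisolariciresinol dehydrogenase of the lignan path, rose by 2.84 (SE 0.53, edgeR adjusted p = 0.0367). HHT1 DN676_c0_g1, named after an omega-hydroxypalmitate feruloyl transferase that adds a phenolic acid to suberin, stood at 153, 104 and 293 TMM-scaled CPM in CK and at 42.2, 38.9 and 22.9 in AC. It fell by 2.402 on the log2 scale (SE 0.42, edgeR adjusted p = 0.0274). Each of these calls was lost in at least 5 of the 6 fits that left out 1 library of the groups compared.

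In AC and PVP vs. CK, 1 of 21 rose (DIR7, 3.41, edgeR adjusted p = 0.0189) and 3 fell, beside 0.458% and 0.374% of all tested unigenes. Those were CSE DN17083 (-2.30, edgeR adjusted p = 0.0202), UFOG, named after a flavonoid glucosyltransferase (-2.38, edgeR adjusted p = 0.0350), and HHT1 DN676_c0_g1 (-1.93, edgeR adjusted p = 0.0439). CSE DN9013, not called, had a mean of 7.10 TMM-scaled CPM in CK and 9.89 with the combination. Of the 6 fits without 1 library, the call held in 3 for DIR7, in 2 for CSE DN17083 and in 1 each for UFOG and HHT1 DN676_c0_g1. The smallest adjusted p of the flavonoid branch in AC vs. CK was that of UFOG (0.125 by edgeR), and in AC vs. CK the monolignol branch had its smallest at CSE DN17083 (0.0630 by edgeR), neither called. ODO1, named after a MYB regulator of phenylpropanoid synthesis in petunia, was at -0.65 in AC vs. CK and -0.93 in AC and PVP vs. CK (edgeR adjusted p = 0.542 and 0.216), and AROD1 at -0.14 and 0.45 (edgeR adjusted p = 0.887 and 0.557). The pathway median was -0.58 in AC vs. CK and 0.12 in AC and PVP vs. CK.

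In AC vs. PVP, 0 of 21 rose and 6 fell, beside 0.0618% and 0.203% of all tested unigenes. AROD1, HST, CAMT, CCR1 DN9614 and both HHT1 unigenes fell, the largest change being -4.72 in HHT1 DN676_c0_g2, which had at most 4.38 TMM-scaled CPM in any library. CCR1 DN9614, a cinnamoyl-CoA reductase that opens the monolignol branch, stood at 163, 184 and 194 TMM-scaled CPM in PVP and at 95.03, 60.4 and 92.8 in CK. It stood at 34.98, 32.1 and 49.7 with AC and at 45.1, 66.3 and 39.8 with the combination. Its log2 fold change of -2.21 in AC vs. PVP (SE 0.31, edgeR adjusted p = 0.00593) passed in all 6 fits without 1 library. So did that of HHT1 DN676_c0_g1, while the call of HHT1 DN676_c0_g2 held in 4 of these fits, those of HST and CAMT in 2 each and that of AROD1 in 0. AC and PVP vs. PVP had 0 higher and 2 lower (CCR1 DN9614 and HHT1 DN676_c0_g1), beside 0.0292% and 0.0412%. Both of these calls held in only 1 of the 6 fits without 1 library. AC vs. AC and PVP had none by edgeR, with 1 higher and 1 lower at an unadjusted p under 0.05, beside 1.82% and 4.47%. The interaction had none either, with 1 higher and 4 lower at an unadjusted p under 0.05, beside 4.53% and 2.94%.

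In the mean AC effect, 4 of 21 were higher and 9 lower, beside 0.311% and 0.46% of all tested unigenes, and both directions occurred within the lignan and the flavonoid branch. Both HHT1 unigenes, CCR1 DN9614, PILR1 and DIR7 kept their calls in all 12 fits without 1 library. SILD, CHS2 and CAMT kept theirs in 3 of those fits each, HST and ODO1 in 5 each, FAOMT in 6, and UFOG and CSE DN17083 in 10 each. Calls among the 21 ran from 5 to 14 over those fits. With the covariate of the seed reserve sum without VICHY DN913, chosen after seeing the data, 0 were higher and 3 lower. PILR1, a pinoresinol-lariciresinol reductase, was at -1.70 while SILD, a later enzyme of lignan synthesis, was at 1.73. CHS2, a chalcone synthase that takes the product of the 4CL step into flavonoids, was at 1.81, whereas UFOG was at -1.88. The second unigene named CCR1, DN21646, had 1.72 TMM-scaled CPM at most and was at 3.05 (edgeR adjusted p = 0.0982), not called.

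**Figure D5:**
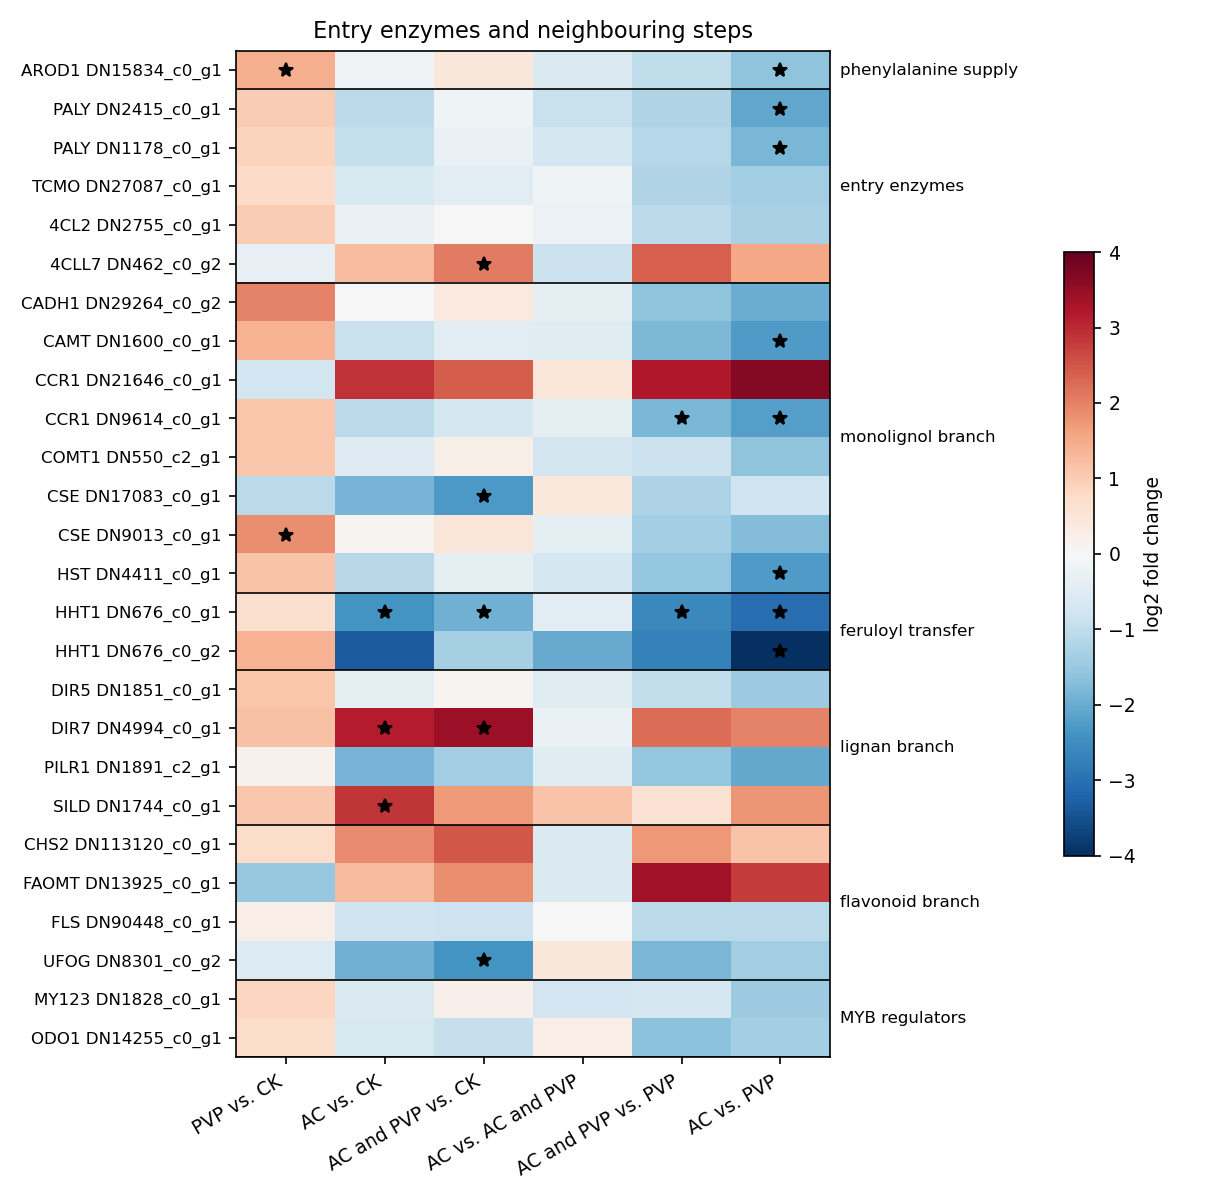
Log2 fold changes (colour, clipped at 4 and -4, which affects only HHT1 DN676_c0_g2 in AC vs. PVP) of the 5 entry enzymes and the 21 unigenes of neighbouring steps (y axis) in 6 comparisons of groups (x axis); stars mark calls. The PVP vs. CK column is mostly above 0 and the AC vs. PVP column mostly below 0, with 4CLL7, DIR7, SILD, CHS2, FAOMT and CCR1 DN21646 standing out above 0 in AC vs. PVP.

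Each entry enzyme was set against 15140 other unigenes by Pearson's r of log2(TMM-scaled CPM + 1) over the 12 libraries. These share group differences and the same scaling. Only named unigenes are given, and the names come from the study's lists of differing unigenes. The matches are therefore a description, and unnamed unigenes ranked nearer in some cases. For PALY DN2415 the nearest 2 named unigenes were PER11, named after a peroxidase (r = 0.956), and LTPG5, named after a GPI-anchored lipid transfer protein (r = 0.956). PER11 stood at 21.8, 17.9 and 73.2 TMM-scaled CPM in PVP and at 0.813, 0.884 and 0.903 in AC. For PALY DN1178 they were DIR5 (r = 0.925) and C14C2 (r = 0.922), at ranks 3 and 4 among the 15140.

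For TCMO they were SUC2, a sucrose transporter name (r = 0.952), and GALUR, a galacturonate reductase name (r = 0.945). For 4CL2 they were METE, a methionine synthase name (r = 0.943, rank 2), and CCR1 DN9614 (r = 0.934, rank 7). For 4CLL7 they were FAP1, named after a fatty-acid-binding protein (r = 0.972), and PSA6, a proteasome subunit name (r = 0.956). FAP1 stood at 0.654 to 1.89 TMM-scaled CPM in the 6 libraries without AC and at 2.20 to 19.7 in the 6 with AC, again highest in AC and PVP replicate 3.

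Trinity placed 2 of the 5 beside other unigenes of the same component, which have no name in the sources used here. TRINITY_DN1178_c0_g2 had counts of 1094, 79 and 546 in CK and of 8 to 102 in the other 9 libraries, with CK replicate 2 far below the other CK libraries. Its log2 fold change was -2.33 in PVP vs. CK (SE 0.82, edgeR adjusted p = 0.239) and -2.45 in AC vs. CK (SE 0.82, edgeR adjusted p = 0.310), neither past the test. Of the 5 other neighbours of PALY DN1178, TRINITY_DN1178_c2_g2 (counts of 34 to 171) was at 1.54 in PVP vs. CK (edgeR adjusted p = 0.101) and -1.31 in AC vs. PVP (edgeR adjusted p = 0.313), with the signs of PALY DN1178 there. In PVP vs. CK, TRINITY_DN1178_c1_g2 was at -0.53 (edgeR adjusted p = 0.669), so it and TRINITY_DN1178_c0_g2 had the sign opposite to PALY DN1178. Whether these neighbours are parts of the same gene was not tested. The PVP vs. CK value of PALY DN1178 therefore holds for that unigene only. TRINITY_DN1178_c1_g2 was at -1.89 in AC and PVP vs. CK (edgeR adjusted p = 0.0517) and TRINITY_DN1178_c1_g1 at 0.63 in PVP vs. CK (edgeR adjusted p = 0.579), neither called. TRINITY_DN1178_c2_g1 and TRINITY_DN1178_c0_g3 had at most 4 counts in a library, and the latter was not tested. TRINITY_DN462_c0_g1 stood at 6.09 to 13.7 TMM-scaled CPM over the 12 libraries and at 0.05 in AC and PVP vs. CK on the log2 scale (SE 0.33, edgeR adjusted p = 0.968), where 4CLL7 TRINITY_DN462_c0_g2 rose. The estimated counts were whole numbers in 11 of 12 libraries for each PALY unigene and in all 12 for TCMO, 4CL2 and 4CLL7.

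The largest counting error of a library in a group, 1 over the square root of its count, ran from 1.87% for PALY DN2415 in PVP to 12.8% for 4CLL7 in PVP, and the CV between replicates exceeded it in every group for every unigene except 4CLL7 in PVP (6.55%). The counting error was 10.7% beside a CV of 18.5% for 4CL2 in the combination and 9.76% beside 17.7% for 4CLL7 in CK.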

How the data were processed

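RNA of 12 libraries in 4 groups of 3, grouped by the sample titles, was analysed. The deposited estimated counts per unigene were made by the authors with RSEM, from Bowtie alignments of TrimGalore-trimmed reads to a Trinity assembly, and carry no scaling for depth. Between 2.39% and 3.97% of the values in a library were not whole, and all were rounded. The low-count filter (above 0 in at least 3 of 12 libraries) was applied to the deposited values, and similar sequences may share reads. Groups were compared with edgeR 4.0.16 (TMM, quasi-likelihood) in R 4.3.3 with all 12 libraries fitted at once, and p-values were adjusted by Benjamini-Hochberg over 58247 unigenes. A call needed an adjusted p under 0.05 and a log2 fold change beyond 1 in either direction. SE is the absolute log2 fold change over the root of F. The self-test on simulated data was run on this fit. Apart from the PALY share and the ratio of 4CLL7 to 4CL2 within a library, levels were not compared between unigenes. DESeq2 1.42.0, the study's tool, and other settings were run as alternatives.

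The members and lists were chosen with earlier results of these data known. The text names the 5 members, the pathway unigenes called between groups, the smallest adjusted p of lists against CK, unigenes of the same component, and the 2 named unigenes nearest each member, and any other after its values were seen. Names come from the study's supplementary lists of differing unigenes, whose fold changes and p-values were not used. No replicate pair of a group agreed within sampling noise (chi-square per degree of freedom 77.9 to 317), and no reference sequence was used.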

Additional observations from a re-analysis of the deposited data

How the results depend on the processing

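Of the fold changes of the 5 unigenes under the alternatives, 630 kept their sign and their side of the threshold, 28 gained a call, 43 lost one and 19 changed sign, each uncalled. With AC and PVP called the combination, 4CL2 in the combination vs. CK (-0.03) became 0.085 and 0.093 by DESeq2 on 2 groups and on all libraries, 0.096 with RLE size factors, 0.11 with filterByExpr and 0.046 with the covariate without VICHY DN913, which took PALY DN2415 there from -0.18 to 0.085. With library sizes only, the interaction became 0.48 for PALY DN2415 (-0.15) and 0.35 for PALY DN1178 (-0.20). Without 1 library, 4CL2 in the combination vs. CK ran from -0.19 to 0.18, PALY DN1178 from -0.48 to 0.074 and PALY DN2415 from -0.43 to 0.047. The interaction ran from -0.53 to 0.080 for PALY DN1178 and from -0.33 to 0.10 for PALY DN2415, and TCMO in AC vs. the combination from -0.30 to 0.016. DESeq2 on 2 groups gave 568 DEGs (called unigenes) in AC vs. CK, 1609 in PVP vs. CK, 1486 in the combination vs. CK, 838 in AC vs. PVP, 829 in the combination vs. PVP and 101 in AC vs. the combination. It called 1 of 5 entry enzymes in PVP vs. CK, all 5 in AC vs. PVP and 4 in the combination vs. PVP. DESeq2 on all libraries gave 823, 1673, 1608, 721, 335 and 41 DEGs in the same order, 948 in the mean AC effect and 104 in the interaction. It called 1 of 5 in AC vs. CK, 2 in PVP vs. CK, 3 in the combination vs. PVP and 4 in AC vs. PVP. Against these stood 189, 409, 485, 154, 41, 4, 449 and 1 DEGs by edgeR.

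EdgeR on 2 groups gave 6 DEGs in AC vs. CK, 252 in PVP vs. CK, 133 in the combination vs. CK (0 of 5 entry enzymes), 8 in the combination vs. PVP and 0 in AC vs. the combination. RLE size factors gave 2 DEGs in AC vs. the combination, and 69.2% of the DEGs in the combination vs. CK were higher, against 55.1% with TMM. With library sizes only there were 1145 DEGs in PVP vs. CK, 784 in the combination vs. CK (0 of 5 entry enzymes) and 5 in the interaction, and 1 of 5 was called in AC vs. PVP. The share of higher DEGs then went from 55.6% to 29.8% in AC vs. CK, from 75.1% to 14.9% in PVP vs. CK, from 55.1% to 27% in the combination vs. CK, from 41.5% to 67.6% in the combination vs. PVP and from 23.4% to 36.8% in AC vs. PVP. In AC vs. CK the median over all unigenes went from -0.23 to -0.57 and in the combination vs. CK from -0.12 to -0.50.

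With filterByExpr there were 833 DEGs in PVP vs. CK (1 of 5 entry enzymes), 814 in the combination vs. CK, 5 in the combination vs. PVP, 1 in AC vs. the combination and 0 in the interaction, and 4 of 5 were called in AC vs. PVP. Without a filter there were 1882 in AC vs. CK, 2449 in PVP vs. CK, 2803 in the combination vs. CK, 1743 in AC vs. PVP (4 of 5), 1912 in the combination vs. PVP (1 of 5), 1048 in AC vs. the combination, 2176 in the mean AC effect and 1382 in the interaction. The legacy dispersion gave 77 DEGs in the combination vs. PVP (1 of 5) and 11 in the interaction. The seed reserve covariate gave 97 DEGs in PVP vs. CK, 92 in AC vs. PVP, 19 in the combination vs. PVP, 2 in AC vs. the combination and 3 in the interaction, with 0 of 5 called in the combination vs. CK and 1 in the mean AC effect. Without VICHY DN913 it gave 86 in AC vs. CK, 199 in PVP vs. CK, 41 in AC vs. PVP, 14 in the combination vs. PVP, 135 in the mean AC effect and 5 in the interaction, with 0 of 5 in the combination vs. CK, AC vs. PVP and the mean AC effect. The causes were not tested.

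The replicate numbers were not taken to pair the libraries, since nothing in the labels ties equal numbers to each other. The methods call the replicates paired without saying by what. Deviations from group means correlated at -0.14 to 0.23 for equal numbers (median 0.047, 6 of 18 pairs over 0.1) and at -0.23 to 0.18 for unequal ones (median -0.041), and 6 of 12 libraries correlated best with their own number. With the number as a replicate block there were 722, 1324, 1448, 664, 438 and 53 DEGs in the 6 pairwise comparisons in the order above, 1121 in the mean AC effect and 105 in the interaction, with 4 of 5 entry enzymes called in AC vs. PVP and 1 in the combination vs. PVP.

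Without 1 library of the groups compared (an arm of 2 libraries shares the spread of all groups), DEGs ran from 0 to 420 in AC vs. CK, 5 to 268 in PVP vs. CK, 33 to 741 in the combination vs. CK, 53 to 145 in AC vs. PVP, 5 to 178 in the combination vs. PVP, 2 to 20 in AC vs. the combination, 197 to 824 in the mean AC effect and 0 to 10 in the interaction. Entry enzymes called ran from 0 to 1 in the combination vs. CK and the combination vs. PVP, 0 to 2 in AC vs. PVP and 1 to 3 in the mean AC effect, and were 0 in the other comparisons. 4CLL7 was called in the combination vs. PVP without AC and PVP replicate 2 (2.80, edgeR adjusted p = 0.0131), and TCMO in the mean AC effect without PVP replicate 1 (-1.01, edgeR adjusted p = 0.0351). The covariate without VICHY DN913 was chosen after seeing the data.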
